A study of Homo sapiens with 6 samples.

Results

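The IGF binding proteins are a family of secreted proteins, IGFBP1 to IGFBP6, that hold the insulin-like growth factors IGF1 and IGF2 outside the cell with high affinity. IGFBP7 is a related secreted protein that binds these growth factors only weakly. IGF1R is the tyrosine kinase receptor through which both growth factors signal, and IGF2R, the cation-independent mannose 6-phosphate receptor, takes up IGF2 and sorts acid hydrolases to the lysosome. The 9 genes described here are the rows of the deposited expression table whose gene symbol is one of these names, out of 57232 genes in all. Values are in FPKM, reads scaled to the length of the gene and to the total of the library. Of the 9, 8 averaged 1 FPKM or more and were among the 10416 genes tested, and IGFBP1 was not. In extracellular fluid the binding proteins set how much growth factor is free to reach IGF1R, and proteases that cut them release it. Fibroblasts secrete several of them, and some are known among the factors that senescent fibroblasts release.

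RNA-seq was carried out on IMR90 cells, a line of human fetal lung fibroblasts, to ask which transcripts change with extra ARID1B, a DNA-binding subunit of the SWI/SNF chromatin remodeling complex. In the ARID1B group the cells were infected with ARID1B cDNA, and in the vector group with the empty vector. All cells were at passage 13 (p13), were selected with puromycin (0.8 ug) for stable integration until day 4, and were taken at day 6 after the infection. Each group had 3 libraries made with a stranded mRNA kit. The study's methods call the libraries biological replicates, and neither they nor the labels say whether each came from a separate infection, so p-values measure the spread between these libraries, which may in part be technical. The cDNA and the gene in the genome share one value of ARID1B.

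ARID1B itself lay at 32.5, 21.0 and 28.3 FPKM in the ARID1B libraries, against 2.29, 1.31 and 2.05 FPKM in the vector libraries. This log2 change of 3.29 (SE 0.21) passed the test (limma, adjusted p = 0.0255). Library totals, worked out from the smallest steps between FPKM values, lay between 63386813 and 91924514 reads or fragments per library, and counting error is small for each of the 9 genes except IGFBP1. All 12 lung fibroblast markers had a mean of at least 1 FPKM, with sums of 2302 to 3455 FPKM in ARID1B libraries and 2405 to 3478 FPKM in vector libraries. No blood marker of 7 reached that level. Of 8 epithelial markers only KRT19 did, with sums of 4.02 to 6.01 FPKM in ARID1B libraries and 4.61 to 14.5 FPKM in vector libraries, and KRT5, SFTPC and SCGB1A1 were listed at 0. Of the endothelial markers only TEK did, with sums of 1.83 to 3.64 FPKM in ARID1B libraries and 0.903 to 3.69 FPKM in vector libraries, and CDH5 was listed at 0. Of 6 smooth muscle markers ACTA2, CNN1 and LMOD1 did, with sums of 90.8 to 165.6 FPKM in ARID1B libraries and 77.5 to 103.6 FPKM in vector libraries, and their part in the results was not tested. One library stood apart: the first principal component, with 63.8% of the variance, gave vector replicate 2 a score of 48.5 and the other 5 libraries scores of -20.0 to 3.63. Replicate 3 lay between replicates 1 and 2 for 69.2% of genes in the ARID1B group and for 85.0% in the vector group, and as a mixture of the other 2 on the log2 scale it was best fitted with 64.2% of replicate 1 in the ARID1B group and 80.7% in the vector group. The libraries may thus not be equally independent, which was not tested, and SEs and p-values would be too small if a library numbered 3 shared material with the others of its group. The fit without both libraries numbered 3 called 0 genes. Log2 changes of single genes and differences in share that move by over 1.5 times without vector replicate 2 are given without it too. Medians over several genes were taken with all 6 libraries only. In these bulk libraries, fewer cells of a type and less RNA per cell cannot be told apart.

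Promoter sequences are shown for the genes whose levels carry the account: IGFBP5 and IGFBP4, which make up most of the binding protein RNA, IGFBP3 and IGFBP6, the 2 genes called when vector replicate 2 is left out, and IGF2R. Each is the 250 bases before the RefSeq start on GRCh38.p14, written 5′ to 3′ on the strand of the gene. RefSeq promoter windows were matched for 7 of the 9 genes. No window was available for IGFBP1 and IGFBP7, so neither could be shown. Capitals in the first 3 mark a TATA box (TATAAA as in IGFBP4, TATATA as in IGFBP3 or TATTTA as in IGFBP5, searched on the gene's strand), a sequence that positions the start of transcription, and 14.3% of 35116 promoter windows of this length hold one. The IGFBP5 window is chr2:216695550-216695799 (minus strand), with its TATA box 31 bases before the start. The IGFBP4 window is chr17:40443200-40443449 (plus strand), with the box at 29 bases. The IGFBP3 window is chr7:45921273-45921522 (minus strand), with the box at 30 bases.
IGFBP5: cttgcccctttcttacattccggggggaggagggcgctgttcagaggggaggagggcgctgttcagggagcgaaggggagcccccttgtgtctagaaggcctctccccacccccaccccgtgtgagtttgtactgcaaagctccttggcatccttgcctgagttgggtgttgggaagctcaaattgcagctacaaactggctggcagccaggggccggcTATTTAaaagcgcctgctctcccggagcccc
IGFBP4: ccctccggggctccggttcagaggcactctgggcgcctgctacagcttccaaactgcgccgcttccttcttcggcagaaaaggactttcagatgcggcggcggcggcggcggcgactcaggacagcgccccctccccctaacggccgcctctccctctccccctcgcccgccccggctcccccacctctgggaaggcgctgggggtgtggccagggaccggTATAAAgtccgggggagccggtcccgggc
IGFBP3: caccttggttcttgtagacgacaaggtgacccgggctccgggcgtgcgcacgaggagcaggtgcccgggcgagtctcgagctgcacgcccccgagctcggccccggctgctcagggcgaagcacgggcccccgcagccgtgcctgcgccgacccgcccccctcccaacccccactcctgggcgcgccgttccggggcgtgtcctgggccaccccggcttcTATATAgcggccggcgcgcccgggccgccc

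The IGFBP6 window, chr12:53097417-53097666 (plus strand), held none of the TATA forms searched, and neither did the windows of IGFBP2, IGF1R and IGF2R. Capitals in the IGFBP6 window mark GTAAACA, a motif of the FOXO family of transcription factors, 186 bases before the start. That motif was found on either strand in 2.98% of windows. In the IGF2R window, chr6:159968832-159969081 (plus strand), capitals mark 3 copies of TCACGTGA, at 133, 75 and 29 bases before the start. This palindrome is the core of the CLEAR element found at genes of lysosomal proteins, and 0.854% of windows hold it. Each copy contains the E-box CACGTG, found in 6.34% of windows. The AP-1 motif TGANTCA, searched on both strands, was in 6.57% of all windows and in none of the 9 windows of these genes. The GC box GGGCGG, searched likewise, was in 42.6% of all windows. Of the windows shown, IGF2R held 6 matches to it and only IGFBP5 held none. A match is a description of the letters and does not show that a factor binds.
IGFBP6: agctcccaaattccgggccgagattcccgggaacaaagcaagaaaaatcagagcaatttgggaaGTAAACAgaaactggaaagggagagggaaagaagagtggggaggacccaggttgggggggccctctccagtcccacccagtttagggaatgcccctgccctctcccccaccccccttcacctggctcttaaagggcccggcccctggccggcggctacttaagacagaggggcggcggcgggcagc
IGF2R: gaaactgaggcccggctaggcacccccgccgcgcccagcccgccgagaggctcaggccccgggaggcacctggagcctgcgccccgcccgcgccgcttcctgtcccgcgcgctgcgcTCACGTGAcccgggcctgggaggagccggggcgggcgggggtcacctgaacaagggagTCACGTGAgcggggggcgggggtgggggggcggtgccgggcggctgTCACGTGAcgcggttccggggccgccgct

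Across the 8 genes tested, none passed the threshold of an adjusted p under 0.05 in limma over all 10416 genes, where 0.0288% of genes were called higher with ARID1B and 0.0% lower. At an unadjusted p under 0.05 in limma, 1 of the 8 was higher (IGFBP7) and 1 lower (IGFBP6), where 4.64% of all genes were higher and 5.94% lower. With voom on the recovered reads, 0 of the 8 passed. The groups did not overlap for 4 genes: IGFBP5, IGFBP7 and IGF2R lay higher with ARID1B throughout, and IGFBP6 lower. Over all genes, 9.44% lay higher without overlap and 11.1% lower. IGFBP2, IGFBP3, IGFBP4 and IGF1R overlapped between the groups. The median log2 change of the 8 genes was 0.20, beside -0.015 over all genes tested, with 5 positive and 3 negative values. These are with all 6 libraries. Without vector replicate 2, IGF1R turned negative (-0.14), and IGFBP5 (0.50) and IGF2R (0.14) were smaller. IGFBP3 (1.12) and IGFBP7 (1.56) were then larger. Vector replicate 2 was the lowest or the highest vector library for all 8, by little for IGFBP6 (43.1 against 43.3 FPKM in vector replicate 1). This holds by definition where vector replicate 3 lies between the other 2, as for 85.0% of all genes tested.

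**Figure D1:**
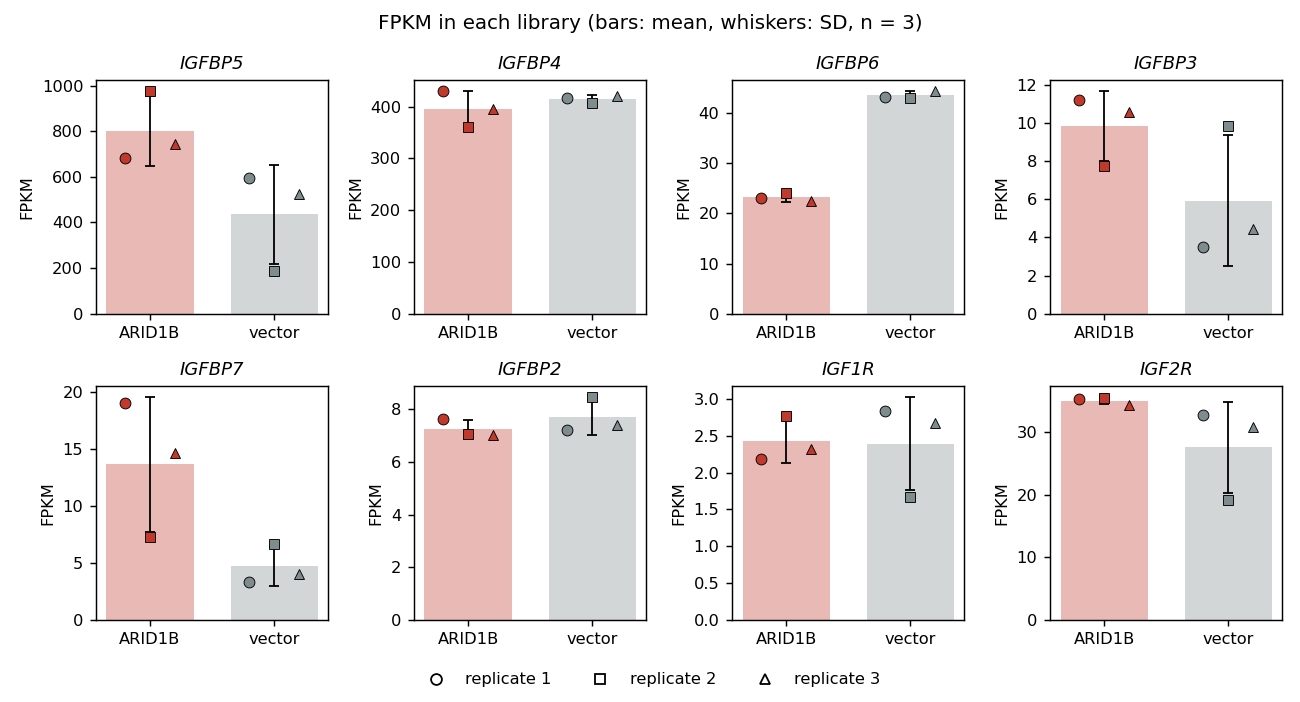
FPKM of the 8 tested genes in each library, with ARID1B libraries on the left and vector libraries on the right of each panel (points: libraries, symbols: replicate number, bars: mean, whiskers: SD, n = 3). The IGFBP6 points lie at 22.5 to 24.2 FPKM with ARID1B and at 43.1 to 44.5 FPKM with vector. The square of vector replicate 2 is far from the other vector points for IGFBP5, IGFBP3, IGF1R and IGF2R. For IGFBP7 it is also above them, at 6.67 FPKM against 3.33 and 4.05 FPKM.

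IGFBP6 (ENSG00000167779), which binds IGF2 in preference to IGF1, had the smallest spread of the 4 genes whose groups did not overlap, relative to its change. It lay at 23.0, 24.2 and 22.5 FPKM in the ARID1B libraries, against 43.3, 43.1 and 44.5 FPKM in the vector libraries. The means were 23.2 ± 0.857 FPKM with ARID1B and 43.6 ± 0.738 FPKM with vector (SD, n = 3 each), a ratio of 0.533. The gap between the groups was thus many times the spread within either. On the log2(FPKM + 1) scale the change was -0.88 (SE 0.099, 95% interval -1.12 to -0.64), which missed the threshold (limma, adjusted p = 0.0920). Leaving out vector replicate 2 gave -0.89 (SE 0.077), past the threshold (limma, adjusted p = 0.0199), in a fit where 1.91% of all genes were called lower and 1.2% higher. IGFBP6 transcripts have a GC content of 64.1%, the highest of the 9 genes. Across 10195 genes, the log2 change ran with GC content (Spearman rho -0.55, a description across genes that share the same 6 libraries). With a correction for GC content and length, the IGFBP6 change was -0.55 (SE 0.19, 95% interval -1.0 to -0.089, limma adjusted p = 0.445).

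IGFBP5 (ENSG00000115461), a binding protein that attaches to extracellular matrix, was the most abundant gene of the family in the ARID1B libraries. It lay at 684, 977 and 745 FPKM there, against 593, 186 and 526 FPKM in the vector libraries. All ARID1B libraries were above all vector libraries, but vector replicate 1 came close to ARID1B replicate 1, and vector replicate 2 lay far below the other 5. The means were 802 ± 155 FPKM with ARID1B and 435 ± 218 FPKM with vector (SD, n = 3 each), a fold of 1.84. The log2 change of 1.03 (SE 0.45, 95% interval -0.059 to 2.12) did not pass (limma, adjusted p = 0.493). Without vector replicate 2 it was 0.50 (SE 0.18, 95% interval 0.060 to 0.95, limma adjusted p = 0.170).

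IGFBP3 (ENSG00000146674), the main carrier of these growth factors in blood, overlapped between the groups through a single library. It lay at 11.2, 7.77 and 10.6 FPKM with ARID1B, against 3.49, 9.87 and 4.46 FPKM with vector. Vector replicate 2 was above ARID1B replicate 2, and the other vector libraries were below all 3 ARID1B libraries. The log2 change was 0.74 (SE 0.34, 95% interval -0.084 to 1.56, limma adjusted p = 0.509) with all libraries. It was 1.12 (SE 0.17) and past the threshold without vector replicate 2 (limma, adjusted p = 0.0426). IGFBP3 and IGFBP6 were the 2 genes of the 9 called in that fit, 1 higher and 1 lower, beside its 1.2% of genes called higher and 1.91% called lower. Without both libraries numbered 3, the IGFBP3 value was 0.57 (SE 0.47), and without vector replicate 1 it was 0.48.

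IGFBP4 (ENSG00000141753), an inhibitory binding protein that the protease PAPPA cuts, was the other abundant gene of the family. It lay at 430.3, 359.8 and 395 FPKM with ARID1B, against 416, 406 and 421 FPKM with vector. The groups overlapped, and the ARID1B libraries spread more widely than the vector libraries. The log2 change was -0.073 (SE 0.12, 95% interval -0.37 to 0.23, limma adjusted p = 0.833), with the sign turned by quantile normalization (0.064) and by the GC and length correction (0.19).

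IGFBP2 (ENSG00000115457), a binding protein abundant in fetal tissue, also overlapped between the groups. It lay at 7.65, 7.04 and 7.01 FPKM with ARID1B, against 7.21, 8.47 and 7.41 FPKM with vector. The log2 change was -0.077 (SE 0.11, 95% interval -0.34 to 0.18, limma adjusted p = 0.805), and it was 0.012 with the GC and length correction and -0.015 without vector replicate 2. IGFBP1 (ENSG00000146678), made mainly by liver and by decidualized endometrium, was close to undetected and was not tested. It held 0, 10 and 6 reads in the ARID1B libraries, against 1, 0 and 0 reads in the vector libraries. These are at most 0.0325 FPKM, and in the 3 libraries without a read the count of 0 allows up to 3 reads, or 0.0103 FPKM in ARID1B replicate 1, 0.00798 FPKM in vector replicate 2 and 0.0114 FPKM in vector replicate 3, for counting error only.

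IGFBP7 (ENSG00000163453) had the highest fold of the 8 genes tested. It lay at 19.0, 7.32 and 14.6 FPKM in the ARID1B libraries, against 3.33, 6.67 and 4.05 FPKM in the vector libraries. The groups did not overlap, but ARID1B replicate 2 and vector replicate 2 were close. The means were 13.7 ± 5.92 FPKM with ARID1B and 4.69 ± 1.76 FPKM with vector (SD, n = 3 each), a fold of 2.92. The log2 change of 1.32 (SE 0.37, 95% interval 0.43 to 2.21) missed the threshold (limma, adjusted p = 0.333), also without vector replicate 2 (1.56, limma adjusted p = 0.0877) and with the GC and length correction (1.45, limma adjusted p = 0.220). POLR2B, an RNA polymerase II subunit gene on the other strand, overlaps this gene. It lay at 24.0, 24.6 and 24.1 FPKM with ARID1B, against 22.1, 22.4 and 22.0 FPKM with vector. The libraries were stranded, but whether the counting used strand is not given in the sources used here, and without it the reads of both genes cannot be told apart where they overlap.

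**Figure D2:**
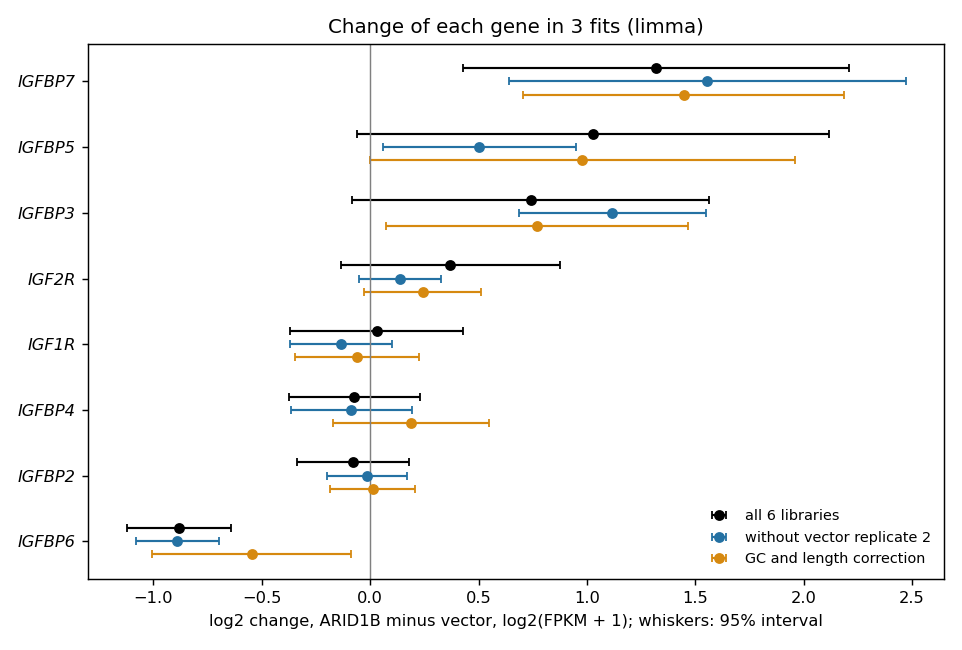
Log2 change of each tested gene on the log2(FPKM + 1) scale, ARID1B minus vector, with 95% intervals, for all 6 libraries (black), without vector replicate 2 (blue) and with the GC and length correction (orange). IGFBP7 and IGFBP6 keep intervals away from 0 in all 3, IGFBP5 drops to 0.50 without vector replicate 2, and IGF1R, IGFBP2 and IGFBP4 lie near 0 with both signs.

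Of the receptors, IGF1R (ENSG00000140443) overlapped between the groups and IGF2R did not. IGF1R lay at 2.19, 2.77 and 2.33 FPKM with ARID1B, against 2.84, 1.67 and 2.67 FPKM with vector. Its log2 change was 0.029 (SE 0.17, 95% interval -0.37 to 0.43, limma adjusted p = 0.956), with a negative sign without vector replicate 2 (-0.14), without ARID1B replicate 2 (-0.040) and with the GC and length correction (-0.062). IGF2R (ENSG00000197081) lay at 35.4, 35.5 and 34.4 FPKM with ARID1B, against 32.7, 19.2 and 30.9 FPKM with vector. All ARID1B libraries were higher, by little over vector replicates 1 and 3 and by much over vector replicate 2. The log2 change was 0.37 (SE 0.21, 95% interval -0.13 to 0.87, limma adjusted p = 0.588), and 0.14 (SE 0.076, limma adjusted p = 0.334) without vector replicate 2.

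By FPKM, which is per gene length, the levels in the ARID1B libraries ran in the order IGFBP5, IGFBP4, IGF2R, IGFBP6, then IGFBP7, IGFBP3 and IGFBP2, then IGF1R, with IGFBP1 near 0. IGFBP7 and IGFBP3 did not differ beyond their spread there. In vector replicates 1 and 3 IGFBP5 stood above IGFBP4 and in vector replicate 2 below it. In all vector libraries IGFBP6 stood above IGF2R, and IGFBP2, IGFBP3 and IGFBP7 lay below them with overlapping values. IGFBP4 and IGFBP5 exceeded at least 99.0% of all genes tested in every library. IGFBP6 exceeded 89.0% to 90.4% of genes with ARID1B and 94.0% to 95.2% with vector. The gene length that the FPKM values imply was 0.623 to 2.51 times the exon length in GENCODE v29 over the 9 genes, so the order between genes depends on the length used. With the reads divided by exon length, IGFBP6 was at 48.8 ± 1.80 with ARID1B and 91.6 ± 1.55 with vector (SD, n = 3 each). IGF2R was then at 21.8 ± 0.351 with ARID1B and 17.2 ± 4.56 with vector, below IGFBP6 in both groups. The recovered reads are minimum values, and the implied length of IGF2R (11108 bases) is shorter than its longest transcript (14044 bases). Its level by exon length may thus be too low, which was not tested. By exon length the vector means of IGFBP4 and IGFBP5 took the order 583 ± 10.9 and 505 ± 253 (SD, n = 3 each).

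The summed FPKM of IGFBP1 to IGFBP7 was 1175, 1383 and 1194 with ARID1B, against 1066, 660.5 and 1008 with vector. All ARID1B sums were higher (exact permutation test, two-sided, p = 0.1, the smallest p that 3 against 3 libraries allow). IGFBP5 made up 58.2%, 70.6% and 62.3% of the sum with ARID1B, against 55.6%, 28.2% and 52.2% with vector, a difference of 18.4 points in the means and of 9.83 points without vector replicate 2. IGFBP4 made up 36.6%, 26.0% and 33.1% with ARID1B, against 39.0%, 61.5% and 41.8% with vector, a difference of -15.5 points and of -8.52 points without vector replicate 2. Vector replicate 2 was thus the one library in which IGFBP4 exceeded IGFBP5. IGFBP6 made up 1.96%, 1.75% and 1.88% with ARID1B, against 4.06%, 6.53% and 4.41% with vector, a difference of -3.14 points. For IGFBP5, IGFBP4, IGFBP6 and IGFBP2 the exact permutation test gave p = 0.1 each, and 0.175 after Benjamini-Hochberg adjustment over the 7 genes compared. The IGFBP2 difference was -0.316 points and -0.124 points without vector replicate 2. Shares of IGFBP7 (p = 0.2), IGFBP1 (p = 0.4) and IGFBP3 (p = 0.9) overlapped in the same exact permutation test, and since the shares add to a whole, they do not vary independently.

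**Figure D3:**
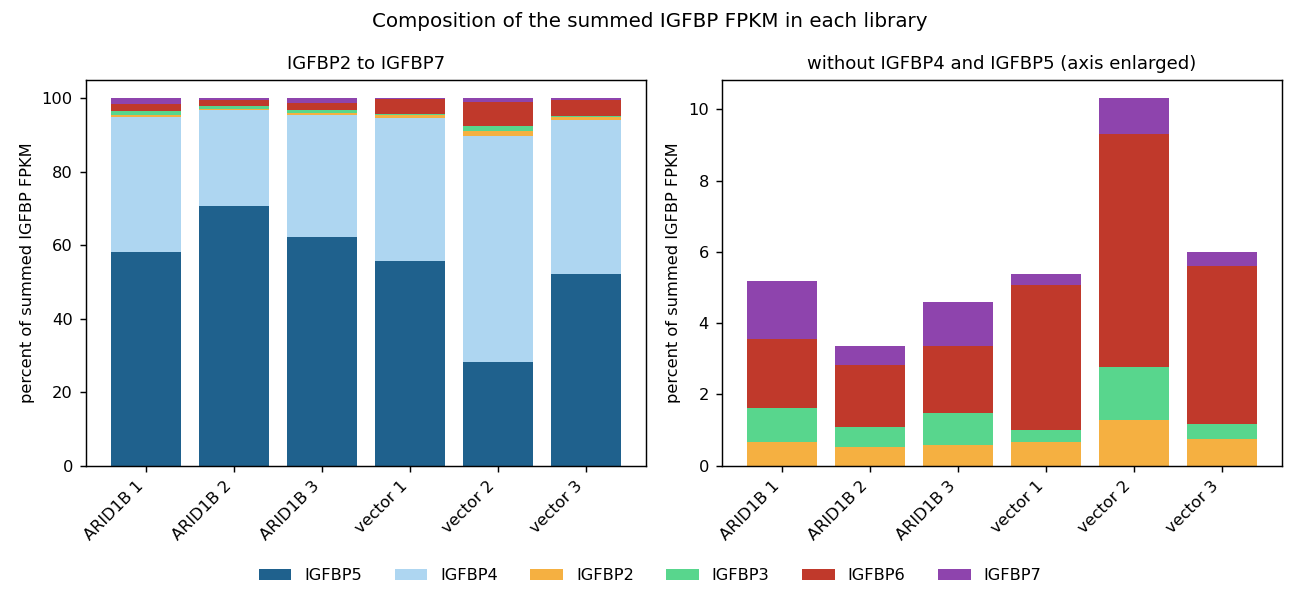
Share of each binding protein gene in the summed FPKM of the family in each library, in percent, with ARID1B libraries on the left; the right panel leaves out IGFBP4 and IGFBP5 and enlarges the axis. IGFBP5 holds 58.2% to 70.6% with ARID1B and 28.2% to 55.6% with vector, and IGFBP6 holds 1.75% to 1.96% with ARID1B and 4.06% to 6.53% with vector.

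The ligands of the pathway were scarce. IGF1 held 49, 59 and 82 reads in the ARID1B libraries, against 27, 5 and 17 reads in the vector libraries, at most 0.0550 FPKM, and was not tested. IGF2 lay at 1.90, 0.737 and 1.49 FPKM with ARID1B, against 0.695, 2.07 and 0.878 FPKM with vector. Its groups overlapped, with a log2 change of 0.12 (SE 0.28, limma adjusted p = 0.882) that turned negative without vector replicate 1 (-0.047), without ARID1B replicate 1 (-0.039) and without both libraries numbered 3 (-0.023), and was 0.38 (SE 0.22) without vector replicate 2. INS and INSRR, the genes of insulin and of the insulin receptor-related receptor, were listed at 0 in all 6 libraries. INSR, the insulin receptor gene, lay at 0.754, 1.12 and 0.870 FPKM with ARID1B, against 1.01, 0.664 and 0.972 FPKM with vector, and was not tested.

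Among the proteases that cut binding proteins, their inhibitors and the ternary complex subunit, 8 of 14 genes were tested and none passed, with 5 positive and 3 negative changes and a median of 0.21. ADAM12, a protease of IGFBP3 and IGFBP5, lay at 3.29, 3.11 and 3.35 FPKM with ARID1B, against 1.48, 0.419 and 1.31 FPKM with vector. All ARID1B libraries were higher, and the log2 change was 1.08 (SE 0.22, limma adjusted p = 0.285). HTRA1, a secreted serine protease of IGFBP5, lay at 51.7, 55.8 and 49.9 FPKM with ARID1B, against 62.2, 82.7 and 65.5 FPKM with vector. All ARID1B libraries were lower here, with a log2 change of -0.40 (SE 0.14, limma adjusted p = 0.421). PAPPA, the protease of IGFBP4, was named after its values were seen. It lay at 25.1, 22.0 and 24.7 FPKM with ARID1B, against 13.7, 1.38 and 11.2 FPKM with vector, and vector replicate 2 was again far below the rest. The log2 change of PAPPA was 1.72 (SE 0.67, limma adjusted p = 0.448) with all libraries and did not pass.

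Other genes with an IGFBP-type domain numbered 13, of which 8 were tested, with 4 positive and 4 negative changes, a median of 0.19 and none past the threshold. CRIM1, a transmembrane protein that binds growth factors of the BMP family, lay at 88.3, 67.3 and 85.9 FPKM with ARID1B, against 41.4, 36.6 and 39.1 FPKM with vector. The groups were well apart, with a log2 change of 1.02 (SE 0.14, limma adjusted p = 0.165). HTRA3, a serine protease related to HTRA1, lay at 1.25, 1.36 and 1.17 FPKM with ARID1B, against 2.14, 2.03 and 2.15 FPKM with vector. It too did not overlap, with a log2 change of -0.46 (SE 0.086, limma adjusted p = 0.264). Without vector replicate 2, 5 of the 57 tested list genes outside the 9 passed, in the fit that called 1.2% of all genes higher and 1.91% lower. ADAM12 (0.83), CRIM1 (0.97) and PAPPA (0.89) were higher on the log2 scale in that fit, with adjusted p = 0.0201, 0.0390 and 0.0328 in limma. HTRA3 (-0.48) and KAZALD1 (-0.92), an IGFBP-type domain gene named after its values were seen, were lower, with adjusted p = 0.0399 and 0.0426 in limma.

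The remaining lists had medians closer to that of all genes. Of 9 reported binding partners of the family, 6 were tested, with 3 positive and 3 negative changes and a median of 0.079. ITGB1, an integrin beta chain and a partner of IGFBP1, lay at 346, 322 and 361 FPKM with ARID1B, against 266, 279 and 267 FPKM with vector, a log2 change of 0.34 (SE 0.12, limma adjusted p = 0.399). TMEM219, a reported receptor of IGFBP3, had a log2 change of -0.30 (SE 0.13, limma adjusted p = 0.492), and -0.20 (SE 0.087) without vector replicate 2. Of 29 signaling genes downstream of the receptors, 25 were tested, with 13 positive and 12 negative changes and a median of 0.039. SOCS2, an inhibitor of cytokine and growth hormone signaling, lay at 1.10, 0.993 and 1.10 FPKM with ARID1B, against 1.41, 1.81 and 1.53 FPKM with vector, a log2 change of -0.32 (SE 0.095, limma adjusted p = 0.350). SH2B1, an adaptor of the receptors, had a log2 change of -0.26 (SE 0.11, limma adjusted p = 0.485).

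All 3 IGF2 mRNA-binding protein genes were tested, with a median of 0.056. The log2 change was -0.095 for IGF2BP3 (SE 0.13), with the sign turned without ARID1B replicate 2 (0.010), and 0.056 for IGF2BP1 (SE 0.094), with the sign turned by the GC and length correction (-0.054). Of the 7 genes of mannose 6-phosphate sorting, the pathway IGF2R serves, all were tested, with 2 positive and 5 negative changes and a median of -0.13. GNPTAB, which makes the mannose 6-phosphate tag, lay at 10.9, 9.46 and 10.7 FPKM with ARID1B, against 8.11, 4.24 and 7.64 FPKM with vector, a log2 change of 0.60 (SE 0.23, limma adjusted p = 0.429). Without vector replicate 2 the GNPTAB change was 0.35 (SE 0.088, limma adjusted p = 0.0961). GGA2, an adaptor for receptor sorting, had a log2 change of -0.17 (SE 0.10, limma adjusted p = 0.597). Over all 57 tested list genes outside the 9, 30 changes were positive and 27 negative, with a median of 0.039, beside -0.015 over all genes tested. Of these 57 genes, 9 lay higher and 9 lower without overlap, beside 9.44% and 11.1% of all genes.

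**Figure D4:**
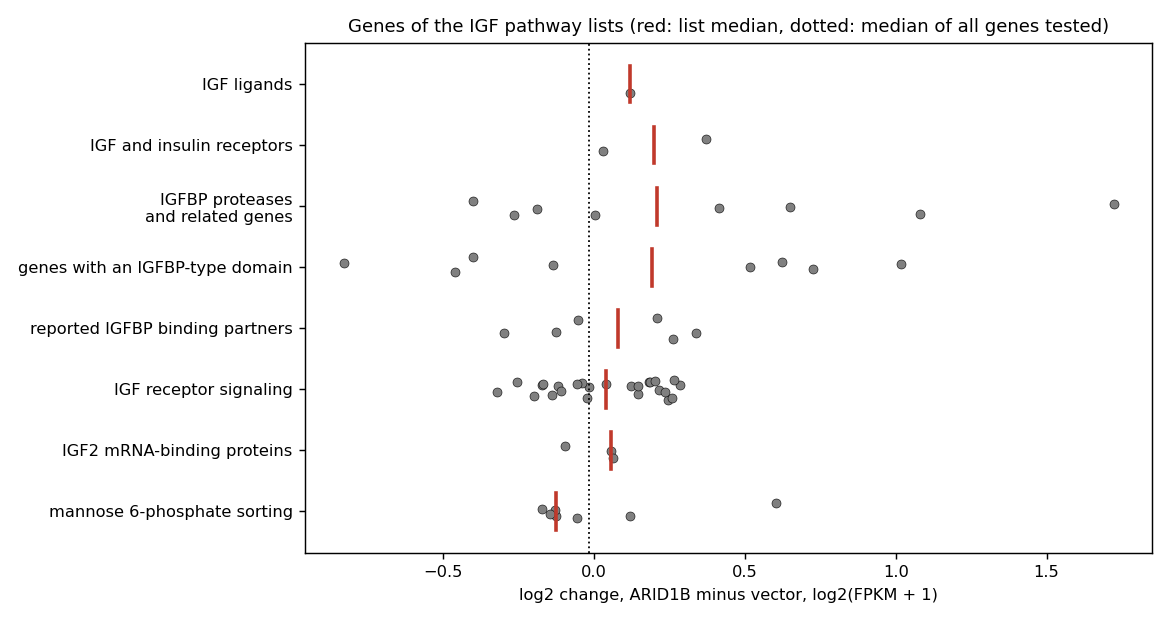
Log2 change of each tested gene of the 8 IGF pathway lists on the log2(FPKM + 1) scale, ARID1B minus vector (points: genes, red: list median, dotted: median of all genes tested, -0.015). List medians run between -0.13 and 0.21, and none of these genes passed the threshold with all 6 libraries.

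The genes whose pattern over the 6 libraries was most like that of IGFBP5 and IGFBP6 were sought among 4980 genes, as a description by Pearson r on the log2(FPKM + 1) scale. For IGFBP5 they were COL5A2, a fibrillar collagen chain, NEO1, a netrin receptor, and LUM, a proteoglycan of collagen fibrils, with r of 0.999, 0.999 and 0.998. LUM lay at 50.8, 89.9 and 64.8 FPKM with ARID1B, against 42.4, 4.21 and 33.0 FPKM with vector. For IGFBP6 they were NAB2, a corepressor of EGR factors, TKT, a transketolase, and CNN2, an actin-binding calponin, with r of 0.999, 0.998 and 0.998. NAB2 lay at 7.23, 7.45 and 7.16 FPKM with ARID1B, against 11.5, 11.3 and 11.9 FPKM with vector. IGFBP5 has IGFBP2 as its neighbour among protein-coding genes on chromosome 2, and IGFBP3 has IGFBP1 on chromosome 7, and within each pair the levels differed widely.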

How the data were processed

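RNA-seq values of 3 ARID1B and 3 vector libraries of IMR90 cells were used, grouped by the condition and replicate number in the sample labels. The authors deposited FPKM values for 57232 genes. The submitters' processing notes list DESeq2, HTSeq 0.5.3p9 and TopHat2 2.0.11 as tools and hg19 as the build, without their roles. Alignment and counting decide which reads of overlapping genes enter a value, and the gene length used enters each FPKM. Whole reads were worked out from the smallest steps between FPKM values (within 0.002 reads for all 10416 genes tested). These reads and the implied gene lengths are minimum values, since the 6 read numbers of a gene can have a common divisor. The median gene tested held 2283 to 3352.5 reads per library.

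Genes averaging 1 FPKM or more were tested on log2(FPKM + 1) values in limma 3.58.1 (R 4.3.3), allowing a trend of the variance, with Benjamini-Hochberg adjustment over all genes tested and a threshold of 0.05. A fold change on this scale understates that of low genes. Where a symbol had several rows, the row with the higher mean was used. Shares were compared with exact permutation tests (scipy 1.17.1, Python 3.11.15), and plots were drawn with matplotlib 3.10.9. The fit was tested on simulated data.

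The 9 genes, the pathway lists and the motifs were chosen with earlier results of these data known. Genes named were all 9, all genes of the ligand and receptor lists, up to 2 genes with the smallest p of each other list, and the 3 genes most similar to the gene with the highest mean and to the one with the smallest p. The alternatives tried were another pseudocount (0.1), a higher filter (5 FPKM) and none, median-ratio and quantile rescaling, and no trend of the variance. Others were a GC and length correction (spline with 5 degrees of freedom), the replicate number as a block, and both together. Voom on the recovered reads and each library left out were also tried. Chosen after seeing the data were the fit without both libraries numbered 3 and shares by exon length. Promoter windows and gene neighbours came from RefSeq (GRCh38.p14) and exon lengths from GENCODE v29.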

Additional observations from a re-analysis of the deposited data

How the results depend on the processing

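Over all genes, 3 passed the threshold with all 6 libraries. The count was 5 with the GC and length correction, 2 with median-ratio rescaling, 2 with quantile normalization and 1 with voom on the recovered reads. It was 0 with no filter on low values, with the replicate block, with the block and the GC and length correction together, and without both libraries numbered 3. Leaving out 1 library at a time gave 0 to 324 genes, the highest (125 higher, 199 lower) without vector replicate 2. It gave 0 to 2 of the 9 genes and 0 to 5 pathway list genes, again highest without that library, and 0 other alternatives called any of the 9. Over 17 alternatives the log2 change lay between 0.48 and 1.12 for IGFBP3, 0.50 and 1.34 for IGFBP5, -0.91 and -0.55 for IGFBP6, 1.05 and 1.68 for IGFBP7, and 0.14 and 0.51 for IGF2R, with no change of sign. The adjusted p of IGFBP6 in limma ranged between 0.0199 and 0.999, and was 0.0501 with the filter of 5 FPKM.

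Signs turned for IGFBP4 with quantile normalization (0.064) and with the GC and length correction (0.19), and for IGFBP2 (0.012), IGF1R (-0.062) and IGF2BP1 (-0.054) with that correction, each the same with the replicate block added. With 1 library left out, the change of IGF1R ranged between -0.14 (without vector replicate 2) and 0.13, that of IGF2BP3 between -0.16 and 0.010 (without ARID1B replicate 2), and that of IGF2 between -0.047 (without vector replicate 1) and 0.38. IGF2 was also at -0.023 without both libraries numbered 3. The difference in the IGFBP3 share turned to -0.181 points with reads not divided by length and ranged between -0.167 and 0.416 points with 1 library left out. The cause was not tested.

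Libraries with the same number did not deviate together (correlations of -0.46, -0.43 and -0.17). With so few libraries, and vector replicate 2 apart from the rest, this cannot decide whether the numbers pair the samples. The labels do not say. With the replicate block IGFBP6 was again at -0.88 (limma, adjusted p = 0.811). Of the genes described, depth limits IGFBP1 and IGF1.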

Other observations

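Within the groups, IGFBP3, IGFBP7 and the ligand gene IGF2 ordered the libraries alike, with ARID1B replicate 1 above 3 above 2 and vector replicate 2 above 3 above 1. MKI67, a marker of proliferating cells that was looked at after the order had been seen, had the same order, at 9.73, 3.52 and 8.14 FPKM with ARID1B, against 2.83, 6.49 and 3.38 FPKM with vector. IGFBP5 and IGF1R had the opposite order in both groups. MMP2, a secreted gelatinase looked at for the same reason, had that order too and lay at 123, 217 and 139.8 FPKM with ARID1B, against 224, 117 and 211 FPKM with vector. Of all genes tested, 2984 (28.6%) had the order of IGFBP7 and 1770 (17.0%) the opposite order. IGFBP2, IGFBP4, IGFBP6 and IGF2R followed neither. PAPPA, ADAM9 and STC2, of the same list of proteases and inhibitors as MMP2, were looked at too and also followed neither.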
